A study of Mus musculus with 7 samples.

Results

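The genes described here were the 23 of 35976 in the table chosen by their measured levels: those whose values in both 12-week libraries were at least 50 normalized counts and at least 4 times the highest of the 5 earlier libraries. RNA was sequenced from pools of adrenal glands. All mice were of the inbred strain C57BL/6J, and the labels name no other genotype and no treatment. The pools were E18.5 embryos with sex not determined (40 glands), males (16 glands) and females (22 glands) at postnatal day 1 (P1), males and females at 2 weeks (6 glands each) and males and females at 12 weeks (4 glands each). Each group was 1 library of 1 pool, so no value has a replicate error, and the number of animals behind a pool is not given in the labels. A normalized count is the number of reads in a gene divided by the library's size factor. In lists of values by age below, the male library comes before the female library.

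The working description of these genes, a rise only by 12 weeks with Hephl1, Ptprq and Rhcg as its marks, did not match the table in 2 respects. None of the 3 genes met the rule: Hephl1 was at 27.7 at E18.5 and at 41.9 and 205 at 12 weeks, Ptprq was at 75.1 in the library labelled P1 female and at 40.5 in the 12-week male library, and Rhcg was highest at E18.5 (495). The genes that did meet the rule included MHC class II genes and their activator Ciita, myeloid genes (Itgax, Mmp12, Slamf9) and genes of fat and fat synthesis (Fasn, Scd1, Retn, Adrb3). Also, 9 of the 23 were called higher at 2 weeks than at P1, against 5.89% of all genes. That fit, described below, rested on few libraries. The 23 are called here the genes at least 4 times higher at 12 weeks, which states only what the rule asked.

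MHC class II molecules are pairs of an alpha and a beta chain that show peptides to helper T cells on the surface of dendritic cells, B cells and activated macrophages. The invariant chain, encoded by Cd74, guides them through the cell, and the H2-DM protein loads the peptide. Ciita is a coactivator without DNA binding of its own. It is recruited to class II promoters by factors on the X box (the RFX complex), the X2 box (CREB) and the Y box (NF-Y, which binds CCAAT and its reverse complement ATTGG). The adrenal gland, a steroid-producing cortex around a catecholamine-producing medulla, holds resident macrophages and lies in perirenal fat, which in the young mouse contains brown adipocytes that make heat through Ucp1.

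Promoters of 2 class II genes are shown because 6 of the 23 genes belong to this presentation pathway. Reference sequences were from RefSeq (GRCm38.p6), whose table had a window of 250 bases before to 50 bases after the start for 10 of the 23 genes. The stretches printed end at the base before the annotated start and run 5′ to 3′ on the gene's strand. Capitals mark CCAAT or ATTGG, TGACGTCA and TGATGATG.
H2-Aa, chr17:34287824-34287993, minus strand: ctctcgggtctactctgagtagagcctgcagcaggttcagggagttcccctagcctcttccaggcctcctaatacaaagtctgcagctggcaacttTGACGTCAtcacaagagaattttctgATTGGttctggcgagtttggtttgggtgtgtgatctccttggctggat
H2-Eb1, chr17:34305697-34305866, plus strand: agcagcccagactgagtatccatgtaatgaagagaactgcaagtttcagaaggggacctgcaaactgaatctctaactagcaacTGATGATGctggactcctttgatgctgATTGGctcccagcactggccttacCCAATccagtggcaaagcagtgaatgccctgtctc
Fasn, chr11:120824548-120824687, minus strand: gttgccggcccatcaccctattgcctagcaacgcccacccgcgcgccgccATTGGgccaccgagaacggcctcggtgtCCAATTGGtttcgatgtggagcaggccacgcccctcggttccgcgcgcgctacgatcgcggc

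The H2-Eb1 stretch overlaps an exon of the antisense RNA Gm20513. In H2-Aa, TGACGTCA began 74 bases and GATTGG 49 bases before the start, 17 bases apart. In H2-Eb1, TGATGATG began 86 bases and GATTGG 60 bases before the start, 18 bases apart. In the RefSeq window of H2-DMb1, TGATGATG began 89 bases and GATTGG 62 bases before the RefSeq start, 19 bases apart. That stretch is not printed, since GENCODE vM21 starts the gene further upstream, at 34153072 on chromosome 17, which puts both words in its first exon. The 3 class II windows shared the order of an X2-like word and then ATTGG, at a spacing that varied by 2 bases or less. Of the 27025 genes with a window, 7 (0.0259%) held either word followed by GATTGG at 17 to 19 bases on the gene's strand. These 7 include the 3 class II genes from which the words and the spacing were taken. The others were Dnah6, Ift57, Thada and Zcchc17. The searches for CCAAT, for its longer form CCAATC, for TGATGATG and for the spacing were chosen after the sequences had been seen. Searched on both strands, CCAAT was in the windows of Fasn, H2-Aa, H2-DMb1, H2-Eb1 and Itgax and in 41.1% of all genes with a window, CCAATC in 18.2% and TGATGATG in 1.68%. TGACGTCA, the CREB word, was in H2-Aa and in 2.03% of all genes. Fasn, which encodes fatty acid synthase, had 3 matches to CCAAT within 90 bases of its start, of which a pair overlapped.

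Among the other words searched, the AP-1 word TGANTCA was in H2-DMb1, Itgax and Mmp12 and in 8.97% of all genes. The steroid receptor word AGAACA was in Gm35463, H2-DMb1, Itgax and Mmp12 against 21.3%. AAGGTCA, the word of the steroidogenic regulator NR5A1, was in H2-Eb1 against 5.38%, TATAAA in Mmp12 against 15.7%, and GGGCGG in Lingo3 against 38.2%. These matches describe letters in a window and no binding was measured.

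Total reads in genes ranged from 15184210 to 23551289 per library. All 23 genes were among the 16720 with a mean of at least 10, 20 of them on their earlier values alone and 3 (Gm14532, Lingo3 and Sgcz) only through their 12-week values. Markers of the adrenal cortex and medulla were present in every library, with the summed level of 12 steroidogenic genes between 269987 and 1158830 and that of 12 chromaffin genes between 45559 and 130098. The library labelled P1 female stood apart from its label: the median Y-linked gene in it reached 21.0% of its value in P1 males, against 0.0609% at 2 weeks and 0.0132% at 12 weeks. Without it, the rule found 26 genes, with Clec7a, Nlrc5 and P2rx6 added and none lost. Liver and skeletal muscle markers, which were plentiful in the young libraries, were at their lowest at 12 weeks (liver list 7270 and 2738, muscle list 148 and 109), as opposed to the 23 genes.

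The rule itself picked 0.138% of the 16720 genes. The ratio of the smaller 12-week value to the highest earlier value was 4.21 to 9.56 with a median of 5.19. It was 8 or more for Retn (9.56), Cd74 (8.40) and Mmp12 (8.34), and under 5 for 7 genes. These values chose the genes and are given as a description. Just inside the limit were Gm16432 (4.21), Slamf9 (4.34) and Scd1 (4.35), and just outside it LOC108169205 (3.99), Klra2 (3.91) and Gsg1l (3.80). With libraries scaled to equal totals, 18 of the 23 genes remained, and Scd1, Slamf9, Sgcz, Gm16432 and Gm35463 fell outside. The median change of all tested genes from 2 to 12 weeks was then -0.20 in males and -0.19 in females on the log2 scale, against -0.02 and -0.04 as deposited. A looser limit of 2 times all earlier libraries was met by 1.85% of all genes, and 6.85% were at least 2-fold below all earlier libraries at 12 weeks.

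**Figure D1:**
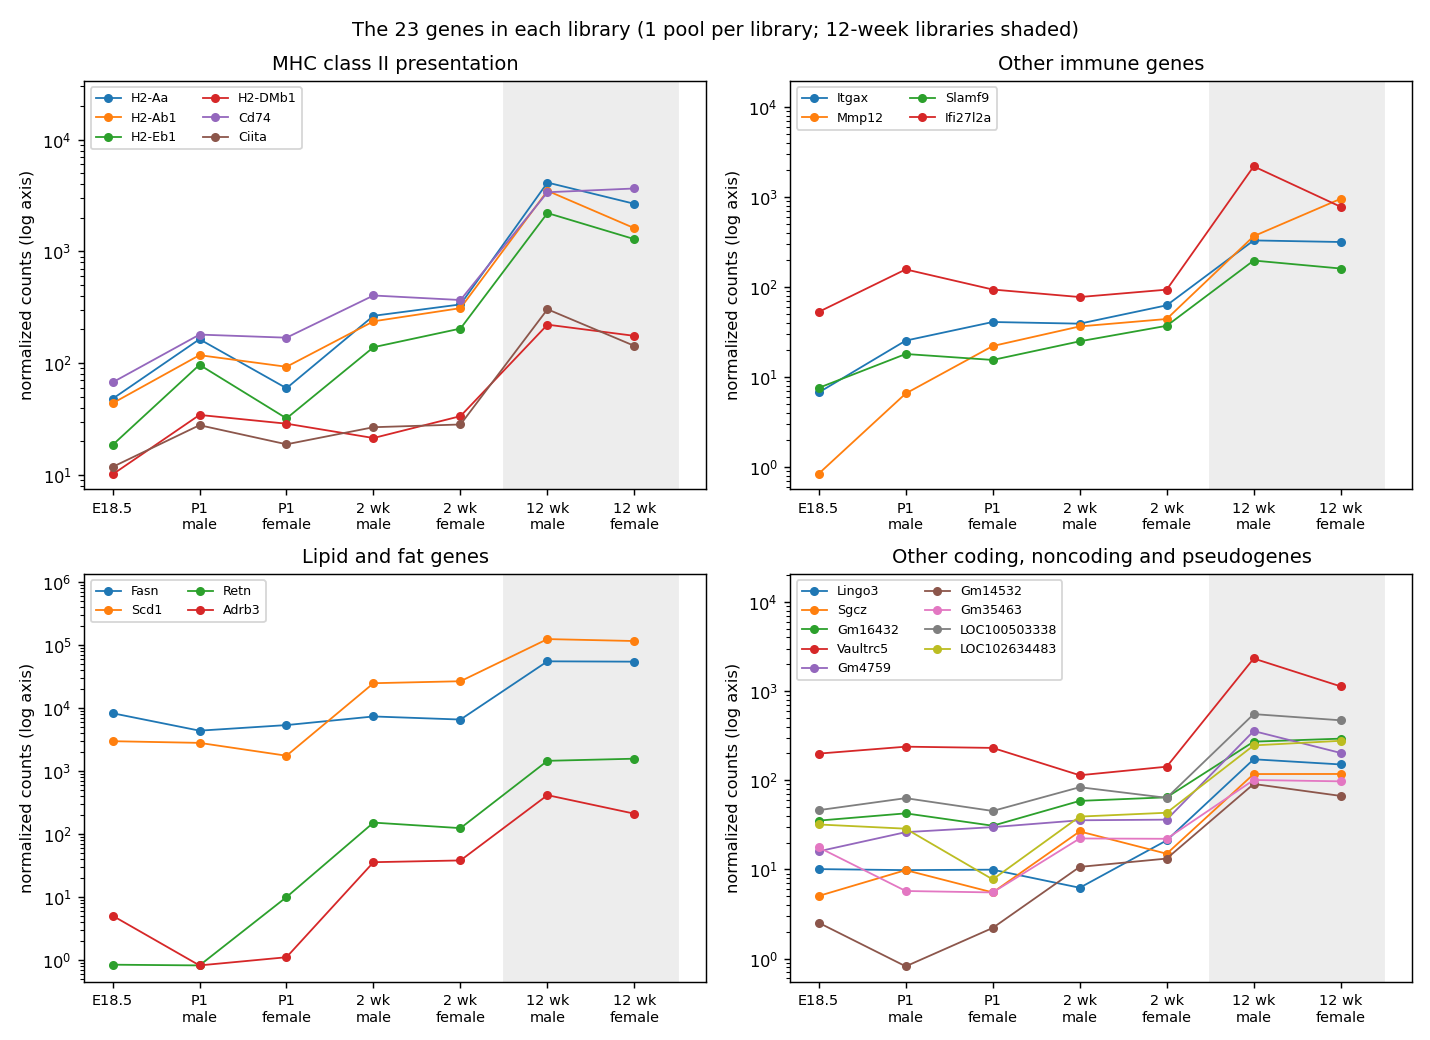
Normalized counts (log axis) of the 23 genes in each of the 7 libraries, 1 pool per library, in 4 panels by the role of the gene, with the 12-week libraries shaded and lines joining libraries only to guide the eye. Both 12-week points lie above all earlier points for every gene, as the rule demanded, and the lipid and fat panel shows an earlier step at 2 weeks for Scd1, Retn and Adrb3.

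Class II alpha and beta chains were at least 5 times higher at 12 weeks than in any earlier library. H2-Aa, the alpha chain of I-A, was at 47.9 at E18.5, 164 and 59.6 at P1, 265 and 335 at 2 weeks, and 4132 and 2666 at 12 weeks. H2-Ab1, its beta chain, was at 43.7, then 118 and 92.7, then 237 and 311, and then 3487 and 1612 at the same ages. H2-Eb1, the beta chain of I-E, was at 18.48, then 96.6 and 32.0, then 139 and 204, and then 2203 and 1286. All 3 had their lowest value at E18.5 and both 2-week libraries above both P1 libraries. The I-E alpha chain gene of this strain is a pseudogene, H2-Ea-ps, and it had 0 reads in every library. The 4 chromosome 17 members, H2-DMb1, H2-Ab1, H2-Aa and H2-Eb1, lay within 163.6 kb.

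The helpers of class II presentation differed in their early course. Cd74, the invariant chain, was at 67.2 at E18.5, 180.0 and 169 at P1, 403 and 367 at 2 weeks, and 3383.5 and 3657 at 12 weeks. It followed the chains, with each age above the one before in both sexes. H2-DMb1, a beta chain of the peptide loader, was at 10.1, then 34.4 and 28.7, then 21.3 and 33.5, and then 221 and 175. Ciita was at 11.8, then 27.8 and 18.8, then 26.7 and 28.2, and then 303 and 143. The values of H2-DMb1 and Ciita thus overlapped between P1 and 2 weeks, while those of the chains and Cd74 did not. Per kilobase of GENCODE vM21 exons, Cd74 was highest of the 6 in both 12-week libraries (2015 and 2178 normalized counts per kilobase) and Ciita lowest (31.8 and 14.95).

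Of 8 listed class II genes, the 6 above met the rule, and H2-DMa and H2-DMb2 did not. H2-DMa, the partner of H2-DMb1 in the loader, was between 98.7 and 122 in the earlier libraries and at 361 and 210 at 12 weeks. The RFX complex genes Rfx5, Rfxap and Rfxank, which bind the X box, had no value at 12 weeks above their highest earlier value, and 0 of 3 were called between P1 and 2 weeks. Reads of the H2 genes and of other near-identical copies are uncertain where the counting could split them. In these bulk pools, more cells of a type and more RNA per cell cannot be told apart.

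Macrophage markers did not follow the class II genes. The summed level of 15 macrophage genes was 9121 at E18.5, 12348 and 13742 at P1, 4627 and 4929 at 2 weeks, and 9696 and 9164 at 12 weeks. The sum of the 8 class II genes was 327, then 765 and 514, then 1196 and 1383, and then 14102 and 9760. The class II sum divided by the macrophage sum was 0.0358 at E18.5, 0.0620 and 0.0374 at P1, 0.258 and 0.281 at 2 weeks, and 1.45 and 1.07 at 12 weeks. The ratio was higher at each later age in each sex, although its numerator consists mostly of genes chosen for high 12-week values. Of the 15 macrophage genes, 0 were at least 2 times all earlier libraries at 12 weeks, and 3 (Cd163, Lyve1 and Timd4, marks associated with long-lived resident macrophages) were at least 2-fold below all of them. Timd4 was at 40.3 at E18.5 and at 2.80 and 4.53 at 12 weeks, the former under the worth of 3 reads (4.19). The complement genes C1qa, C1qb and C1qc were together at 1894 at E18.5 and at 3447 and 3509 at P1. They were at 1375 and 1558 at 2 weeks and at 4663 and 3784 at 12 weeks.

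**Figure D2:**
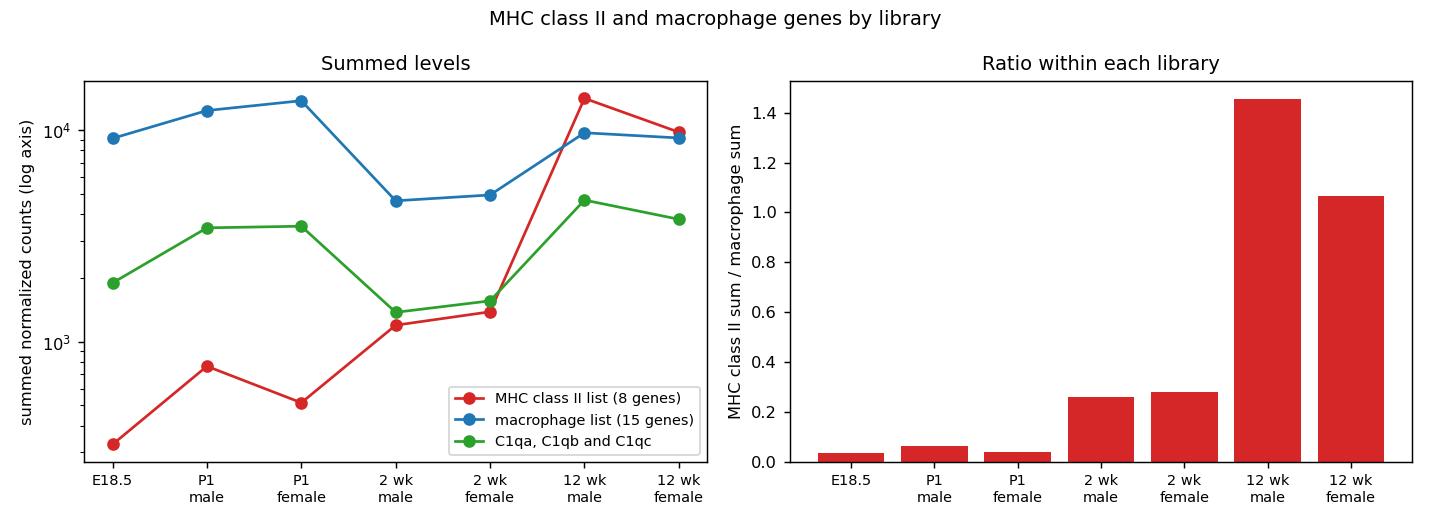
Left, summed normalized counts (log axis) of 8 MHC class II genes, 15 macrophage genes and the 3 C1q genes in each library. Right, the class II sum divided by the macrophage sum. The macrophage sum at 12 weeks (9696 and 9164) is within its earlier range and above its 2-week values (4627 and 4929). The ratio is 1.45 and 1.07 at 12 weeks against 0.281 or less before. Of the 8 class II genes, 6 were chosen for high 12-week values, so its 12-week rise follows largely from the rule.

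The summed lymphocyte markers stayed low, although the listed immunoglobulin genes Igkc and Ighm were missing from the table. The summed level of 14 T and NK cell genes was between 142 and 284 in all libraries, and 236 and 226 at 12 weeks. The 9 B and plasma cell genes found in the table summed to 189 and 118 at 12 weeks, within the earlier range of 102 to 246, although Jchain, the joining chain of secreted antibody, was at 110 and 38.5 against 4.201 or less before. Among 8 dendritic cell genes, Itgax alone was at least 2 times all earlier libraries in both 12-week libraries, which the rule that chose it required. The part of any of these cell types in the class II values was not tested.

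The remaining immune members are expressed by myeloid cells or induced by interferon. Itgax, the integrin CD11c, was at 6.72 at E18.5, 25.4 and 40.8 at P1, 39.1 and 62.6 at 2 weeks, and 330 and 317 at 12 weeks. Mmp12, the macrophage elastase, was at 0.84 at E18.5, which was 1 read, then at 6.55 and 22.1, then 36.5 and 44.1, and then 368 and 958. Mmp12 was the member whose 12-week libraries differed most in favour of the female. Slamf9, a receptor of the SLAM family, was at 7.56, then 18.0 and 15.5, then 24.9 and 37.1, and then 197 and 161. Ifi27l2a, an interferon-induced gene, was at 52.9, then 157 and 93.8, then 77.4 and 93.5, and then 2198 and 781. Alone of these 4 genes, it was not higher at 2 weeks than at P1 in either sex, and its female values were nearly equal.

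Genes of neighbouring pathways were counted at the looser limit of 2 times all earlier libraries, with no test made. Of 13 MHC class I genes, a list chosen after the values were seen, 6 passed (H2-K1, H2-D1, H2-Q6, H2-Q7, B2m and the class I activator Nlrc5). Nlrc5 was between 46.3 and 106 in the earlier libraries and at 373 and 348 at 12 weeks. Of 16 interferon response genes, 5 passed (Ifit1, Ifit3, Gbp3, Gbp5 and Cxcl9), while Isg15 was at 47.5 and 52.0 at 12 weeks against 99.1 at E18.5. Exons of Cd74 overlap the microRNA gene Mir5107, exons of Ciita overlap Dexi and exons of Mmp12 overlap Mmp1b on the opposite strand, and use of strand in the counting is not given in the sources used here.

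Fat synthesis and fat cell genes included the members with the highest levels, Scd1 and Fasn. Fasn, the enzyme that builds palmitate, was at 8237 at E18.5, 4354 and 5337 at P1, 7316 and 6536 at 2 weeks, and 54878.5 and 54185 at 12 weeks. Its earlier values spanned 1.89-fold, and the 12-week libraries stood 6.58 times above the highest of them. Scd1, the desaturase that makes oleate, was at 2963, then 2785 and 1742, then 24665 and 26505, and then 123708 and 115190. Scd1 took 0.583% and 0.527% of all reads at 12 weeks, and its earlier values spanned 15.2-fold. Scd1 thus had an intermediate level at 2 weeks, whereas the 2-week values of Fasn lay within the range of E18.5 and P1.

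Of 20 tested genes of fatty acid synthesis, a list chosen after the values were seen, 4 passed the looser limit that 1.85% of all genes passed. Fasn and Scd1 passed it by the rule that had chosen them, so the count cannot be compared with that share. The others were Acaca and Acss2. Acaca, which makes the malonyl-CoA used by Fasn, was between 2999 and 6698 in the earlier libraries and at 17056 and 17739 at 12 weeks. Scd2, the relative of Scd1, was at 46316 at E18.5 and at 14247 and 32270 at 12 weeks. Srebf1, a regulator of the pathway, was at 2166 and 2600 at 12 weeks against 2020 at E18.5.

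Retn, the fat hormone resistin, was at 0.84 at E18.5 and 0.82 in the P1 male library, each 1 read. It was at 9.93 in the library labelled P1 female, 151 and 124 at 2 weeks, and 1446 and 1562 at 12 weeks. Adrb3, the fat cell adrenergic receptor, was at 5.04 at E18.5, 0.82 and 1.10 at P1, 35.6 and 37.9 at 2 weeks, and 412 and 209 at 12 weeks. Both genes thus had few reads before 2 weeks, which leaves little precision there. Exons of Adrb3 overlap Gm45470 on the opposite strand.

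Adipocyte markers changed mostly before 12 weeks. The other 8 listed adipocyte genes summed to 2915 to 3071 before 2 weeks, 44576 and 49384 at 2 weeks, and 32134 and 26452 at 12 weeks. Ucp1, the uncoupling protein of brown fat, was at 24.3 or less before 2 weeks, 19373 and 21706 at 2 weeks, and 2705 and 2197 at 12 weeks. Adipoq, the fat hormone adiponectin, was at 1930 and 2409 at 2 weeks and at 5237 and 3026 at 12 weeks. Without Ucp1 the sum of the remaining 7 was 25203 and 27678 at 2 weeks and 29428 and 24254 at 12 weeks. Cfd, the fat protease adipsin, was at 5783 and 5638 at 2 weeks and at 11416 and 13114 at 12 weeks. The median log2 difference of the 10 listed genes between 2 and 12 weeks was 0.83 in males and 0.10 in females. These 10 include Retn and Adrb3, which the rule chose for high 12-week values. Of the other 8, Adipoq, Cfd and Lep were higher at 12 weeks than at 2 weeks in both sexes. Ucp1, Cidea, Plin1 and Fabp4 were lower in both sexes, and Elovl3 was higher in males only. The lower sum at 12 weeks in males thus came from Ucp1, while Retn and Adrb3 were not the only fat genes with higher 12-week values. Their part in the values of Retn, Adrb3, Fasn and Scd1 was not tested.

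**Figure D3:**
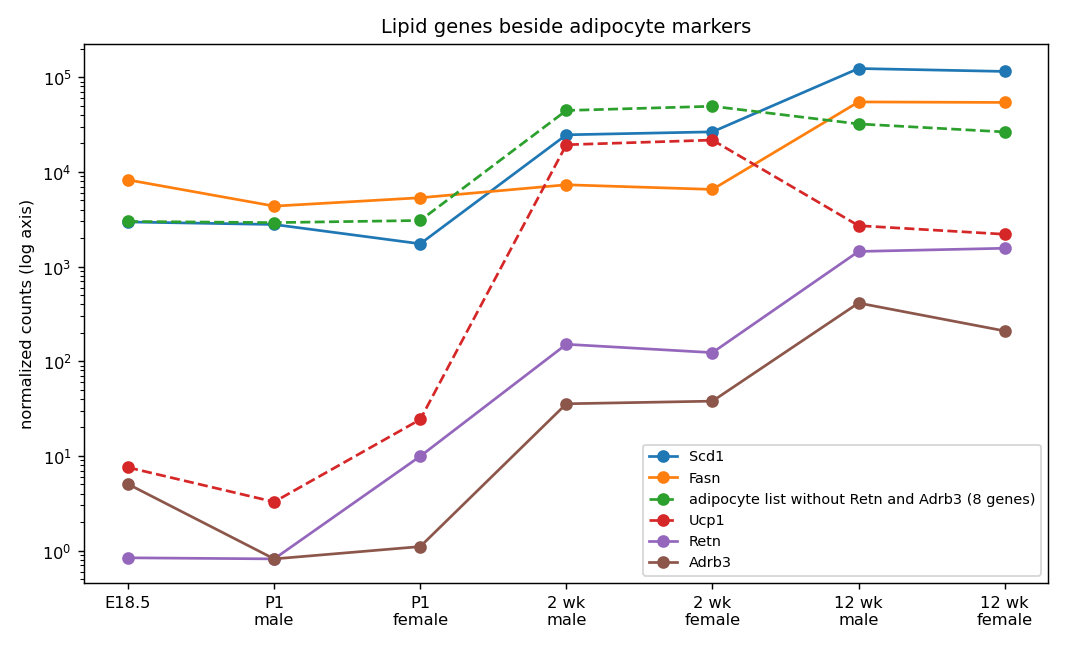
Normalized counts (log axis) of Scd1, Fasn, Retn and Adrb3 (solid lines) beside Ucp1 and the sum of 8 other adipocyte genes (dashed lines) in each library. Ucp1 falls from 19373 and 21706 at 2 weeks to 2705 and 2197 at 12 weeks, while the 4 solid lines are highest at 12 weeks.

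The other coding members were expressed at low levels. Lingo3, a leucine-rich repeat protein of the LINGO family, was at 21.2 or less in the earlier libraries and at 172 and 150.5 at 12 weeks. Sgcz, zeta-sarcoglycan, was at 26.7 or less and at 117 and 118. Gm16432, listed in RefSeq as Catspere2, a relative of a sperm ion channel subunit, was between 30.9 and 64.4 and at 271 and 293. In these 3 genes the 12-week sexes differed by less than counting error.

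Noncoding RNAs and pseudogenes made up 6 of the 23 genes. Vaultrc5, a small RNA related to the RNA of the vault particle, was at 199 at E18.5, 238 and 231 at P1, 114 and 142 at 2 weeks, and 2322 and 1130 at 12 weeks. It was the highest of these 6, and its 2-week values lay below those at P1 and E18.5. LOC100503338, a noncoding RNA on chromosome X that RefSeq lists as Gm14636, was between 45.3 and 83.6 before 12 weeks and at 552 and 471. Gm4759, a pseudogene, was at 36.2 or less and at 357 and 203, and LOC102634483, a processed pseudogene listed as Gm14036, at 43.2 or less and at 246 and 277. Gm14532 and Gm35463, both noncoding, were at 13.2 and 22.2 or less and reached 90.9 and 66.8, and 101 and 97.3. RefSeq matched 19 members by symbol and 3 by synonym or gene identifier. Of those, 17 were protein coding, 3 were long noncoding RNAs and 2 were pseudogenes, and of 15750 tested genes found by symbol 91.4% were protein coding.

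The rule set an upper limit on the P1 and 2-week values but did not use their order, and the change between them was tested with that limit. With limma on the 6 postnatal libraries and sex as a block, 9 of the 23 genes were called higher at 2 weeks and 0 lower (Benjamini-Hochberg adjusted p under 0.05 over 16720 genes). Among these 9, Gm14532 was tested only because the 12-week values that chose it raised its mean to at least 10. Of all genes, 5.89% were called higher and 10.5% lower. The median log2 change was 1.14 over the 23 genes and 0.00 over all tested genes. Scd1 rose by 3.54 ± 0.229 (SE) on the log2 scale with an adjusted p of 0.00159, Adrb3 by 4.27 ± 0.447 (0.00351), Retn by 4.95 ± 0.657 (0.00658) and Cd74 by 1.14 ± 0.160 (0.00758). Gm35463 (1.81), Gm14532 (2.42), Mmp12 (1.64), H2-Aa (1.58) and H2-Ab1 (1.37) had limma adjusted p from 0.0247 to 0.0395. All 9 were higher in both 2-week libraries than in both P1 libraries. H2-Eb1 changed by as much as H2-Aa, 1.58 ± 0.458, but its limma adjusted p was 0.0633. Ciita (0.25, limma adjusted p 0.686), H2-DMb1 (-0.22, 0.712), Fasn (0.52, 0.0995) and Vaultrc5 (-0.88, 0.118) were not called.

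These calls rested on few libraries, and the 12-week values that chose the genes entered the residual spread. A fit of the 4 P1 and 2-week libraries alone, with the mean of at least 10 taken over them, was added after seeing the data. It tested 22 of the 23 genes, without Gm14532, and called 9 higher and 1 lower. It added H2-Eb1 as higher (limma adjusted p 0.0205) and Vaultrc5 as lower (0.0234), and kept the other 8 calls. An edgeR quasi-likelihood fit of the recovered reads, chosen after seeing the data, also called 9 of the 23. Leaving out 1 library left 0 calls without P1 male, 1 without the library labelled P1 female, 1 without 2-week male and 3 without 2-week female. Without a 12-week library, 12 (male left out) and 13 (female left out) were called, 1 of them lower in each case. The median log2 change of the 23 genes was between 0.72 and 1.18 when 1 library was left out. The sign of 4 uncalled genes, Ciita, H2-DMb1, Ifi27l2a and Lingo3, changed in at least 1 of those fits.

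**Figure D4:**
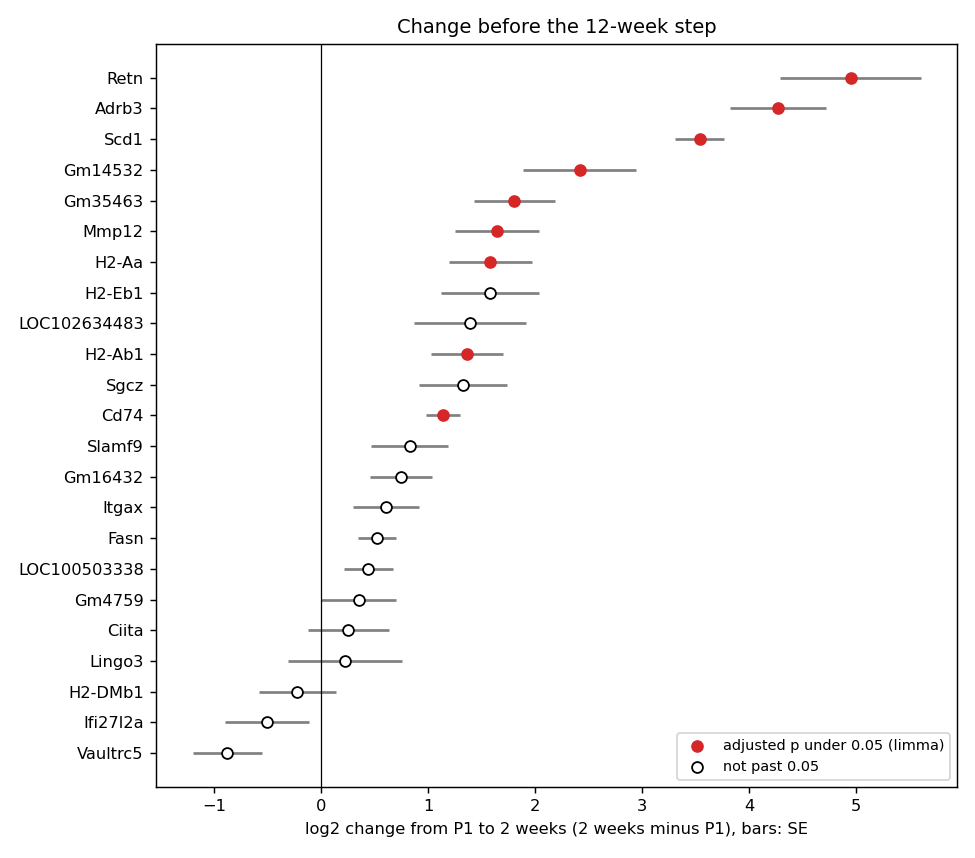
Change of each of the 23 genes from P1 to 2 weeks on the log2(normalized count + 1) scale, with the SE of the limma fit as bars and filled points for an adjusted p under 0.05. The 9 filled points lie between 1.14 and 4.95, and Vaultrc5, Ifi27l2a and H2-DMb1 lie below 0.

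The list of macrophage genes went the other way over the same interval, with a median log2 change of -1.36. Of its 15 genes, 0 were called higher and 11 lower, against 5.89% and 10.5% of all genes. Csf1r, the receptor that macrophages need to live, fell by 1.57 ± 0.170 (limma adjusted p 0.00377). Of 8 class II genes 3 were called higher and 0 lower (median 0.69), and of 10 adipocyte genes 9 were called higher and 0 lower (median 4.95). Of the 16 interferon response genes, 0 were called higher and 5 lower. The class II calls were the members Cd74, H2-Aa and H2-Ab1, and the adipocyte calls include the members Retn and Adrb3. All these calls rested on the same few libraries as those of the members. The difference between the lists was not tested.

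Between E18.5 and P1, a comparison of single libraries, 5 of the 23 genes were at least 2-fold higher in both P1 libraries (Cd74, H2-Ab1, H2-DMb1, Itgax and Mmp12), against 2.91% of all genes. Adrb3 and Gm35463 were at least 2-fold lower in both, against 2.24% of all genes. Several of these changes rest on few reads. Adrb3 had 6 reads at E18.5 and 1 in each P1 library, and Gm35463 had 21 and then 7 and 5. Of the higher genes, Mmp12 had 1 read at E18.5, Itgax 8 and H2-DMb1 12. Of the 23, 12 had their lowest earlier value at E18.5 and 19 had their highest earlier value in a 2-week library, which was the female library for 14. The same shares over all genes were not computed, so these counts are a description only.

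Sexes at 12 weeks could be compared only as 1 library against 1, so ratios are given with 95% counting intervals, which cover counting error only, and no test. Of the 23 genes, 17 had the larger value in males and 6 in females, and the median male to female ratio was 1.17. In 4 genes the male value exceeded the female value 2-fold or more, against 4.84% of all genes. They were Ifi27l2a (2.82, 2.57 to 3.08), H2-Ab1 (2.16, 2.03 to 2.31), Ciita (2.13, 1.70 to 2.67) and Vaultrc5 (2.05, 1.90 to 2.22). Adrb3 lay just under that limit at 1.97 (1.63 to 2.38) and Gm4759 at 1.76 (1.45 to 2.14). Mmp12 alone exceeded 2-fold in the other direction, with a female to male ratio of 2.61 (2.27 to 3.004), against 3.98% of all genes. The intervals excluded equality in favour of the male for 11 genes and of the female for 2, Mmp12 and Cd74, and included it for 10. Apart from the 2-fold counts, these splits and the median ratio were not computed over all genes. A lean of these genes to the male library beyond that of all genes is therefore not shown.

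Of the 6 class II members, Cd74 alone was not higher in the 12-week male library. All 3 chains, H2-DMb1 and Ciita were higher in the 12-week male library, with ratios from 1.26 (1.003 to 1.58) for H2-DMb1 to 2.16 for H2-Ab1. Cd74 was 0.925 (0.877 to 0.976) of the female value, a small difference whose interval does not cover the choice of scaling. Of the 15 macrophage genes, 8 were higher in the 12-week male library beyond counting error, among them Csf1r (1.31, 1.20 to 1.44), Mrc1 (1.49, 1.36 to 1.64) and C1qa (1.39, 1.28 to 1.499). In the female library 3 were higher (Cd68, Gpnmb and Cd5l). Of the 8 adipocyte genes other than Retn and Adrb3, 6 were higher in the male library, among them Adipoq (1.73, 1.65 to 1.82) and Lep (4.76, 3.59 to 6.41), and 1, Cfd, in the female library. Their part in the sex ratios of the class II genes and of Adrb3 was not tested. At 2 weeks the chains were lower in the male library: H2-Aa had a ratio of 0.791 (0.677 to 0.923), H2-Ab1 of 0.762 (0.647 to 0.896) and H2-Eb1 of 0.681 (0.552 to 0.838). Over all 23 genes the median ratio at 2 weeks was 0.905, with 1 gene above equality beyond counting error, 6 below and 16 within it. The same counts over all genes were not computed. Fasn did not differ between the 12-week sexes beyond counting error, at 1.01 (0.999 to 1.03). Scd1, with many more reads, was at 1.07 (1.06 to 1.08).

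**Figure D5:**
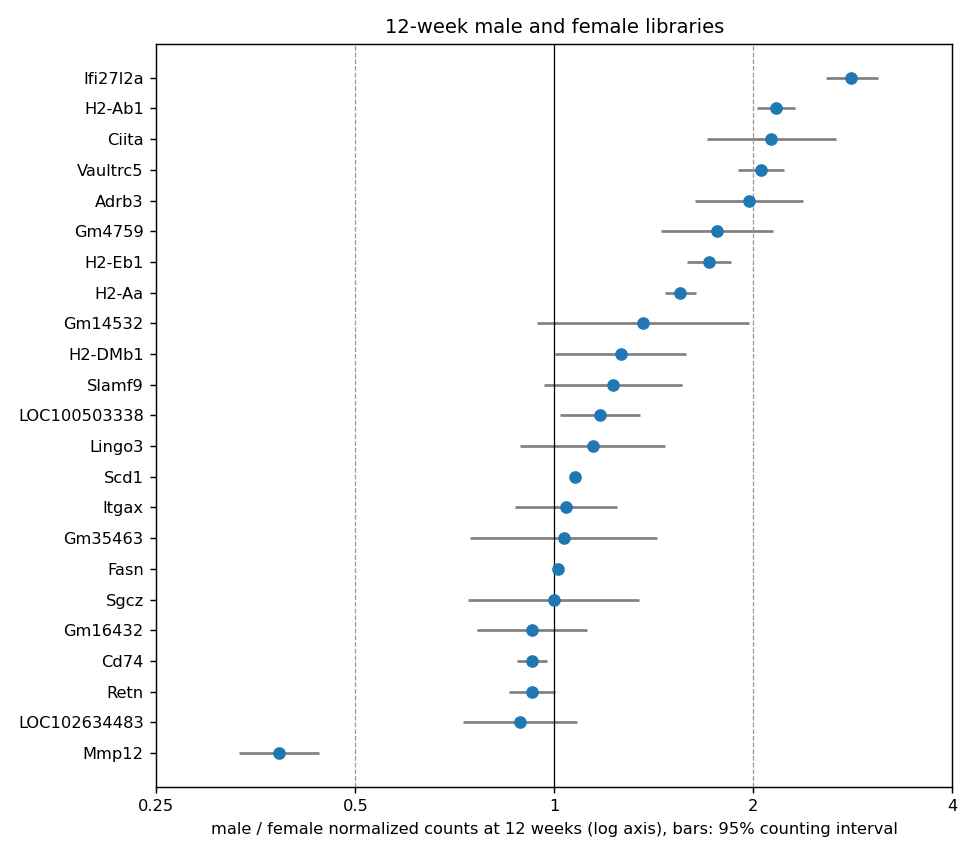
Male to female ratio of normalized counts at 12 weeks (log axis) for the 23 genes, with 95% counting intervals from the recovered reads of 1 library per sex as bars and dashed lines at 0.5 and 2. Ifi27l2a has the highest ratio, 2.82, and Mmp12 the lowest, 0.384.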

How the data were processed

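Total RNA of 7 adrenal gland pools was extracted with guanidinium thiocyanate, per the labels' protocols. The authors deposited 1 table of normalized counts (a signal, not raw reads) for 35976 genes. The submitters' processing notes name CASAVA 1.8.2, HISAT2 2.1.0, HTSeq 0.9.1, DESeq2 2.11.40.6 and mm10. Annotation and strand setting are not given in the sources used here. All deposited values (100%) were within 0.001 of whole reads after division by 1 step per library, and those reads were used for counting intervals (exact binomial, 95%) and for edgeR 4.0.16 (quasi-likelihood, TMM).

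Genes with a mean of at least 10 were fitted on log2(value + 1), which understates changes of low genes, with limma 3.58.1 in R 4.3.3 (eBayes with trend, sex block, 6 postnatal libraries, two-sided, Benjamini-Hochberg). The residual spread is between single pools, and the 12-week libraries entered it. The fit was tested on simulated data. The 12-week difference that chose the genes was not tested.

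The members and lists were chosen with earlier results of these data known. Named were genes by rank of ratio, 12-week level, sex ratio and change to 2 weeks, members in the lists, and those nearest the threshold; others were chosen after their values were seen. Coordinates and lengths are from GENCODE vM21 and RefSeq GRCm38.p6, which has the coordinates of mm10, and sequences from RefSeq. Other thresholds, scalings, pseudocounts and left-out libraries were tried.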

Additional observations from a re-analysis of the deposited data

Results flagged for a closer look

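The sign of the male to female difference changed with age in 5 members, each beyond counting error in the compared libraries. With 1 library per sex and age, the difference between ages was not tested. H2-Aa differed, male minus female on the log2 scale, by 1.44 at P1, by -0.34 at 2 weeks and by 0.63 at 12 weeks. The H2-Eb1 differences in that order were 1.56, -0.55 and 0.78. H2-Ab1 differed by -0.39 at 2 weeks and 1.11 at 12 weeks. Scd1 differed by 0.68 at P1, by -0.10 at 2 weeks and by 0.10 at 12 weeks. Fasn differed by -0.29 at P1 and by 0.16 at 2 weeks. The P1 values rest on the library labelled P1 female, in which Y-linked genes had 21.0% of the male level.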

How the results depend on the processing

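The rule found 61 genes with a fold limit of 3 and 3 with a limit of 8, and between 18 and 32 with other levels, scalings or without 1 of the early libraries tried. From P1 to 2 weeks, limma called 2737 genes and 9 members. With all genes of a mean above 0 it called 0 genes (6431 at an unadjusted p under 0.05) and 0 members (13 unadjusted), and edgeR, on the 16720 genes, called 2795 and 9. Without the trend, 1672 genes and 6 members were called, and 4145 and 10 with the P1 and 2-week libraries alone. Leaving out 1 library gave 2 to 4461 genes and 0 to 13 members. The cause was not tested. At 12 weeks, 1476 genes and 5 members were at least 2-fold apart between the sexes, 3746 and 9 at a limit of 1.5, and 276 and 0 at a limit of 4. Of the single-gene changes from P1 to 2 weeks under the alternatives, 283 kept their direction and side of the threshold, 44 fell below it, 9 passed it and 5, none called, changed sign. With 1 library left out, the log2 change ranged from -0.19 to 0.70 for Ciita, -0.68 to 0.24 for H2-DMb1, -1.20 to 0.18 for Ifi27l2a and -0.63 to 1.07 for Lingo3, which also changed sign (-0.13) without the library labelled P1 female. The other sign changes came without a 2-week library. Depth limits the members with few reads before 2 weeks, among them Retn, Adrb3, Gm14532, Mmp12, Sgcz and Gm35463, where 3 reads are worth 2.45 to 4.19 normalized counts.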

Other observations

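Relatives of the members, chosen after their values were seen, mostly did not share the 12-week level. Lingo1 and Lingo2, relatives of Lingo3, were at 45.9 or more and 44.1 or more in the earlier libraries and at 5.59 and 12.4, and 5.59 and 5.66, at 12 weeks. Retnla, the resistin relative of myeloid and fat cells, was at 74.7 and 117 at 2 weeks and at 74.1 and 75.8 at 12 weeks, with no further rise of the size seen in Retn. Sgcb and Sgcd, which join muscle membrane complexes like Sgcz, were within their earlier ranges except Sgcd in the 12-week female library (710.5). Ifi27, the neighbour in name of Ifi27l2a, was at 2861 and 3917 against 2438 or less before.

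Some genes outside the rule are named here because they are known from myeloid cells, again chosen after their values were seen. Nearer to the fold limit than Ctss, Ms4a7 and Lilra5 were LOC108169205 (3.99), Gsg1l (3.80) and Sbsn (3.72), which are not on that list. The choice does not show that myeloid genes prevailed near the limit. Ctss, the protease that trims the invariant chain, was at 981 or less in the earlier libraries and at 3228 and 3227 at 12 weeks. Ms4a7, a macrophage membrane gene, was at 47.5 or less and at 180.4 and 171, and Lilra5, a leukocyte receptor gene, at 31.1 or less and at 205.5 and 115. Slamf8, a relative of Slamf9, was at 9.82 or less before and at 43.3 and 46.4, under the level of 50 that the rule asked for.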
